A study of Mus musculus with 10 samples.

Results

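The slit diaphragm genes Nphs1, Kirrel, Cd2ap, Magi2 and Trpc6 were followed in isolated mouse glomeruli, the filtering units of the kidney. These 5 rows were taken by gene symbol from a table of normalized read counts of 12934 rows, and all 5 were found. RNA sequencing covered 10 libraries of wildtype DBA/2J mice, an inbred strain labelled as susceptible to diabetic kidney disease, killed at 17 weeks of age. At 7 weeks all mice were injected hydrodynamically, that is, with a large fluid volume pushed quickly into the circulation, which chiefly transfects the liver. The non-diabetic saline group (n = 3) received saline and later the vehicle of streptozotocin. The diabetic saline group (n = 4) received saline, then daily low doses of streptozotocin, a toxin of insulin-producing cells, from 8 weeks, and a 60% high-fat diet for the last 5 weeks. The diabetic Esm-1 group (n = 3) had the same streptozotocin and diet, but was injected with plasmids for mouse Esm-1, an endothelial proteoglycan also called endocan, and for the Sleeping Beauty transposase, which inserts a plasmid's gene into the genome. Diabetes and diet therefore cannot be told apart, no group received Esm-1 without diabetes, and no group received a plasmid without Esm-1. The labels do not say that each library is a separate animal, so p-values measure the spread between libraries, which may in part be technical.

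The slit diaphragm is the thin junction that bridges the foot processes of podocytes, the epithelial cells on the outer face of the glomerular capillary, and it is the last barrier to plasma protein. Nephrin, encoded by Nphs1, and NEPH1, encoded by Kirrel, are immunoglobulin-type adhesion proteins that span the slit and bind each other. On the inner side, CD2AP links nephrin to actin and to signalling, MAGI2 is a scaffold with PDZ domains that binds nephrin, and TRPC6 is a calcium-conducting channel of the foot process. Loss of nephrin, CD2AP or MAGI2 causes nephrotic syndrome in people and in mice, and gain-of-function variants of TRPC6 cause focal segmental glomerulosclerosis in people.

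The libraries held 3931712 to 11300629 reads, of which 338549 to 962321 lay outside Rn45s, Lars2 and Mir6236, and 1 read was worth 0.619 to 1.77 normalized counts. All 32 listed podocyte markers (members left out) were in the table and passed the filter on low values. So did 20 of 20 proximal tubule and 19 of 20 distal nephron markers, so passing it does not check the tissue label. Summed levels of the podocyte markers ranged from 10837 to 14659 in non-diabetic saline, 7652 to 11091 in diabetic saline and 5608.5 to 7634 in diabetic Esm-1. Endothelial markers (23 of 23 in the table) ran the same way, at 2973.5 to 3708, 2087 to 2903 and 1574 to 1948 in the same order, as did mesangial markers (14 of 16), at 2087 to 2639, 1637 to 2245 and 1259 to 1433. Distal nephron markers (20 of 20) ran the other way, at 2031 to 4413, 4159 to 5902 and 4328 to 7705, and proximal tubule markers (20 of 20) spread widely, at 840.1 to 2867, 820.9 to 1954 and 1603 to 2504. Leukocyte markers (8 of 18 in the table) summed to 26.2 to 55.1 over all libraries. Within its group, non-diabetic saline replicate 2 had the highest podocyte and proximal tubule sums and the lowest distal nephron sum. No listed marker in the table was at 0 in every library. In whole glomeruli, fewer podocytes, less RNA per podocyte and a different share of tubule in the preparation cannot be told apart. The part of these marker levels in the results on the slit diaphragm genes was tested only by the values relative to podocyte markers given further on. Glomerular Esm1 itself was at 0 to 2.48 normalized counts in non-diabetic saline, 0.925 to 3.20 in diabetic saline, and 0, 3.81 and 6.51 in the diabetic Esm-1 libraries. These 3 ranges overlap and lie near the limit of counting, and they do not check a plasmid delivered mainly to the liver.

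Upstream windows are shown for Magi2, the member with the largest difference in 2 of the 3 comparisons, and for Crb2, the partner gene with the largest difference between the diabetic Esm-1 and non-diabetic libraries. The sequences are those of RefSeq (C57BL/6J reference, build GRCm38.p6, plus strand, so DBA/2J variants are not shown), whereas the reads had been aligned to mm9. Magi2 has 2 annotated starts in this table. Capitals mark matches to any of 5 motifs of podocyte transcription factor families, searched on both strands.
Magi2, first start, chr5:19226796-19227035: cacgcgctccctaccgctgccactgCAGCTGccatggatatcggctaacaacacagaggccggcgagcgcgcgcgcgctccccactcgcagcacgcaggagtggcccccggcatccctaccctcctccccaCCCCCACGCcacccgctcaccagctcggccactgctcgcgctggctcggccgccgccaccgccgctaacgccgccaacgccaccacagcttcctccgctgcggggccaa
Magi2, second start, chr5:19907268-19907517: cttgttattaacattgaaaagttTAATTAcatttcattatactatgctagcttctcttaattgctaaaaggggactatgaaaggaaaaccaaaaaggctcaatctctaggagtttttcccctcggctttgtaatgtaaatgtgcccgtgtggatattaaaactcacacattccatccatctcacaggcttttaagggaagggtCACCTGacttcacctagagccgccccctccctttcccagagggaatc
Crb2, chr2:37775999-37776248: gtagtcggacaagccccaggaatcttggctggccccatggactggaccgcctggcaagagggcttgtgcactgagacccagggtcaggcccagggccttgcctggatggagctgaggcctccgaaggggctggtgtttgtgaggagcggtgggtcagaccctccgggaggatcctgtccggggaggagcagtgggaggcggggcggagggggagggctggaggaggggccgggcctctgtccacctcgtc
The motifs were GCGNGGGNG for the WT1 and EGR family, TGTTTAC for forkhead factors such as FOXC2, TAATTA for LIM homeodomain factors such as LMX1B, CANNTG for E-box factors such as TCF21 and TGCTGA for MAF factors. Among 32851 upstream windows of 250 bases, 10.5%, 3.17%, 4.84%, 66.2% and 16.1% held a match, in the same order, and no marked matches overlapped. The first Magi2 window held 1 WT1 and EGR match and 1 E-box, the second held 1 LIM homeodomain match and 1 E-box, and the Crb2 window held none. The windows of Nphs1, Kirrel and Cd2ap lay mostly within annotated exons of any gene on either strand (250, 210 and 241 of 250 bases) and are not printed. Those of Nphs1 and Kirrel were alike in being rich in G and A on the gene's strand, at 77.2% and 76.8%, each above 99.9% of all windows, whereas that of Cd2ap was at 45.2%, above 19.7% of windows. The Cd2ap window held 1 WT1 and EGR match and 2 E-boxes, and those of Nphs1, Kirrel and Trpc6 held no match to any of the 5 motifs. A match is a string of letters and was not tested as a binding site.

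Nephrin transcript had its highest mean in the non-diabetic group and its lowest in the diabetic Esm-1 group. Nphs1, on chromosome 7, was at 396, 535 and 337 normalized counts in the non-diabetic saline replicates 1 to 3. Diabetic saline replicates 1 to 4 were at 231, 384, 265 and 305, and diabetic Esm-1 replicates 1 to 3 at 223, 154 and 139. The diabetic Esm-1 libraries lay below every other library, while the 2 saline groups overlapped through diabetic saline replicate 2. The group means, with 3, 4 and 3 libraries, were 423 ± 102, 296 ± 65.8 and 172 ± 45.0 (SD), and rested on 1500, 1184 and 621 reads.

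Kirrel, the gene of NEPH1 on chromosome 3, divided the diabetic saline group. Non-diabetic saline stood at 150.4, 166 and 135 normalized counts, diabetic saline at 85.6, 159, 156 and 90.3, and diabetic Esm-1 at 83.3, 77.2 and 61.1. Diabetic saline replicates 2 and 3 lay within the range of non-diabetic saline, and replicates 1 and 4 lay just above the highest diabetic Esm-1 library. The summed podocyte markers divided these replicates alike, at 7652 and 9493 in replicates 1 and 4 against 10987 and 11091 in replicates 2 and 3. Summed endothelial and mesangial markers did so too. Group means of Kirrel were 150.3 ± 15.7, 123 ± 40.2 and 73.9 ± 11.5 (SD).

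Cd2ap, on chromosome 17, encodes an adaptor that many cell types besides podocytes use. It was nearly even among the non-diabetic libraries, at 221, 222 and 224 normalized counts. Diabetic saline was at 166, 209, 214 and 225, and diabetic Esm-1 at 189, 211 and 162. All 3 diabetic Esm-1 libraries lay below the 3 non-diabetic ones, by a small margin for replicate 2, and diabetic saline spanned nearly the whole range. The means of 222 ± 1.70, 204 ± 25.7 and 187 ± 24.6 (SD) differed less than those of Nphs1, Kirrel and Magi2.

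Magi2, the scaffold gene on chromosome 5, separated the non-diabetic libraries from all diabetic ones. Non-diabetic saline was at 136, 178 and 122 normalized counts. The diabetic saline libraries were at 63.2, 97.2, 76.7 and 65.5, and the diabetic Esm-1 libraries at 71.0, 42.9 and 40.7. The 2 diabetic groups overlapped through diabetic Esm-1 replicate 1. Means were 145.2 ± 29.0, 75.6 ± 15.5 and 51.5 ± 16.9 (SD).

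Trpc6, on chromosome 9, was close to the limit of counting. It had 6, 1 and 4 reads in non-diabetic saline, 3, 2, 6 and 0 in diabetic saline, and 1, 0 and 4 in diabetic Esm-1. No library reached the 10 normalized counts of the filter, so the gene was left out of the tests across genes. The groups overlapped fully, and 0 reads allow up to 5.31 normalized counts in diabetic saline replicate 4 and 2.86 in diabetic Esm-1 replicate 2 (3 reads, counting error only). Scaled to depth, the summed reads gave a ratio of 0.868 between the saline groups, diabetic over non-diabetic (exact 95% counting interval 0.341 to 2.21), and of 0.539 between the diabetic groups, Esm-1 over saline (0.147 to 1.68), so a difference was not detectable at this depth.

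**Figure D1:**
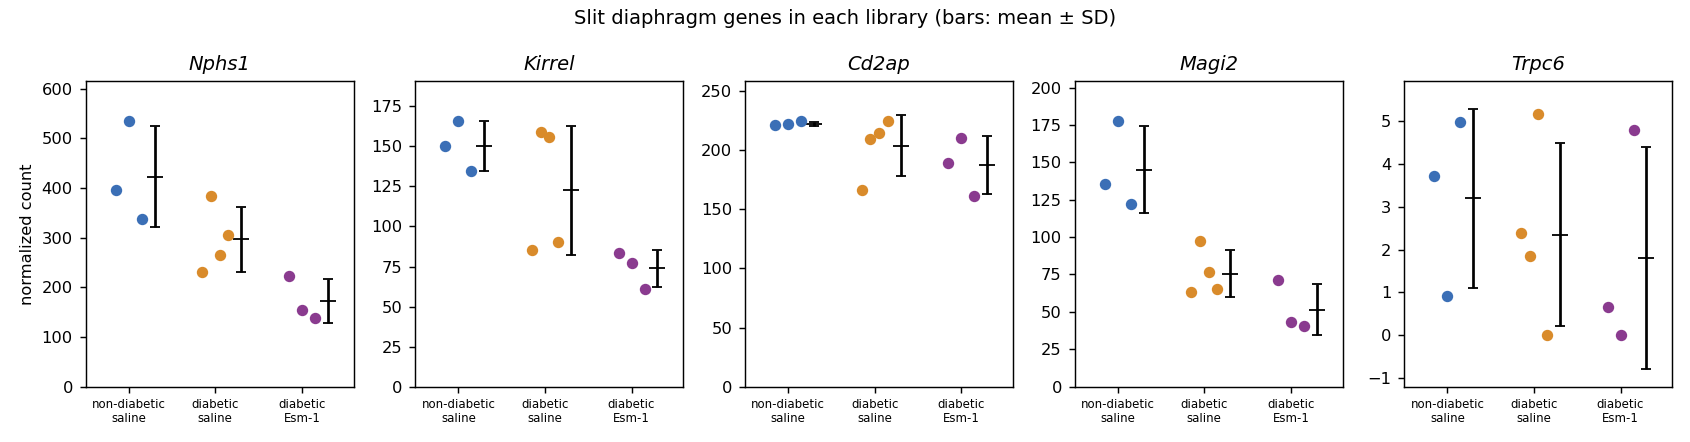
Normalized count (vertical axes, each on its own scale) of the 5 genes in the 3 groups (horizontal axes), with 1 point per library in replicate order and the mean ± SD beside them. Nphs1, Kirrel and Magi2 are lowest in diabetic Esm-1, Magi2 is at most 97.2 in every diabetic library and at least 122 in every non-diabetic one, and Trpc6 is at most 5.17.

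Per kilobase of the longest coding transcript in GENCODE M21, non-diabetic levels were highest for Nphs1 at 91.7 ± 22.1 (SD) normalized counts per kb, followed by Cd2ap at 41.5 ± 0.317, Magi2 at 22.1 ± 4.41, Kirrel at 20.7 ± 2.15 and Trpc6 at 0.983 ± 0.640. Magi2 and Kirrel did not differ beyond their spread. In diabetic Esm-1 the levels per kb of Nphs1 and Cd2ap came together, at 37.4 ± 9.75 and 34.9 ± 4.59, and Kirrel (10.2 ± 1.58) and Magi2 (7.83 ± 2.57) stayed below them. The ratio of Nphs1 to Cd2ap normalized counts within a library was 1.5 to 2.41 in non-diabetic saline, 1.24 to 1.84 in diabetic saline and 0.733 to 1.18 in diabetic Esm-1. For Magi2 to Cd2ap it was 0.544 to 0.8, 0.291 to 0.465 and 0.204 to 0.375, and for Kirrel to Cd2ap 0.6 to 0.747, 0.402 to 0.761 and 0.367 to 0.440. Ratios to Cd2ap need no scaling between libraries, and that of Magi2 separated non-diabetic from diabetic libraries without overlap. Since many cell types besides podocytes use Cd2ap, these ratios cannot tell a change in a podocyte gene from one in podocyte content.

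The change with diabetes and high-fat feeding was measured by setting the 4 diabetic saline libraries against the 3 non-diabetic ones. Of the 4 members tested, Magi2 fell and no other passed, where 5.53% of the 8239 tested genes passed in either direction, 3.73% higher and 1.81% lower. Of the 32 podocyte markers, 5 passed as lower and none as higher, and 25 lay below 0, with a median log2 difference of -0.31. Magi2 fell by 0.93 on the log2 scale (SE 0.21), or 1.91-fold, with adjusted p = 0.0102 in limma with Benjamini-Hochberg adjustment over all tested genes. Log2 values were taken after adding 1 to the normalized count, so that folds of low genes come out too small. Magi2 was also the 1 of the 5 members whose groups did not overlap, against 16.5% of tested genes in either direction and 8.34% lower. Its call rested on 1 library and on the variance model, with adjusted p = 0.0664 without non-diabetic saline replicate 2 and 0.074 without the intensity trend, at log2 differences of -0.78 and -0.93. Nphs1 had a log2 difference of -0.51 (SE 0.19, 95% interval -0.91 to -0.11, adjusted p = 0.137), and those without 1 library ran from -0.66 to -0.33. Kirrel was at -0.34 (SE 0.21, interval -0.78 to 0.09, adjusted p = 0.409) and Cd2ap at -0.14 (SE 0.15, interval -0.44 to 0.17, adjusted p = 0.677). The intervals of Kirrel and Cd2ap hold 0 but do not show that these genes were alike in the 2 groups.

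What the Esm-1 plasmids changed in diabetic mice was asked by comparing the 3 diabetic Esm-1 libraries with the 4 diabetic saline ones. None of the 4 tested members passed limma, where 0% of the 8239 genes passed. At the same adjusted p under 0.05, edgeR also had 0 genes and DESeq2 had 32. Without adjustment, limma had 899 genes at p under 0.05, or 10.9% of those tested. Nphs1 and Kirrel nevertheless lay without overlap below diabetic saline, 2 of the 5 members, against 9.2% of tested genes in either direction and 5.47% lower. Nphs1 had a log2 difference of -0.78 (SE 0.19, 95% interval -1.18 to -0.38, adjusted p = 0.137), which ranked 32nd of all tested genes by p. DESeq2 called it (log2 -0.76, adjusted p = 0.0303), and limma did so without diabetic saline replicate 1 (log2 -0.89, adjusted p = 0.0468). Alternatives other than leaving out 1 library gave Nphs1 differences from -0.83 to -0.25. The smallest, -0.25, came from taking each gene relative to the podocyte markers, as described further on. All 32 podocyte markers lay below 0 in this comparison too. Their median was -0.55, against 0.005 over all tested genes, and none passed limma. Kirrel stood at -0.68 (SE 0.21, interval -1.12 to -0.24, adjusted p = 0.221), Magi2 at -0.57 (SE 0.21, interval -1.01 to -0.13, adjusted p = 0.309) and Cd2ap at -0.12 (SE 0.15, interval -0.43 to 0.19, adjusted p = 0.817). Diabetic Esm-1 thus did not lie nearer to non-diabetic saline than diabetic saline did for any of these 4 genes, by their means.

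The 3 diabetic Esm-1 libraries lay furthest from the 3 non-diabetic ones, a comparison that shares its libraries with the other 2. Nphs1, Kirrel and Magi2 fell, 3 of the 4 tested members, where 15.3% of tested genes passed in either direction, 7.19% higher and 8.11% lower. Markers of glomerular cells fell as well: 22 of the 32 podocyte, 15 of the 20 tested endothelial and 8 of the 14 tested mesangial markers passed as lower, and none as higher. The median log2 difference of the podocyte markers was -0.90, so the fall was not particular to the slit diaphragm genes. Magi2 fell by 1.5 (log2, SE 0.23) or 2.84-fold (limma adjusted p = 0.000187), Nphs1 by 1.29 (SE 0.21) or 2.45-fold (adjusted p = 0.000273) and Kirrel by 1.02 (SE 0.23) or 2.03-fold (adjusted p = 0.0038). These 3 calls held without each library in turn, with log2 differences of -1.75 to -1.35, -1.5 to -1.11 and -1.11 to -0.89 in the same order. Cd2ap was at -0.26 (SE 0.16, 95% interval -0.58 to 0.07, adjusted p = 0.316). In 4 of the 5 members the groups did not overlap, Cd2ap among them, against 32.8% of tested genes in either direction and 17.4% lower. For Trpc6 the ratio of summed reads per unit of depth was 0.468 (exact 95% counting interval 0.127 to 1.46).

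**Figure D2:**
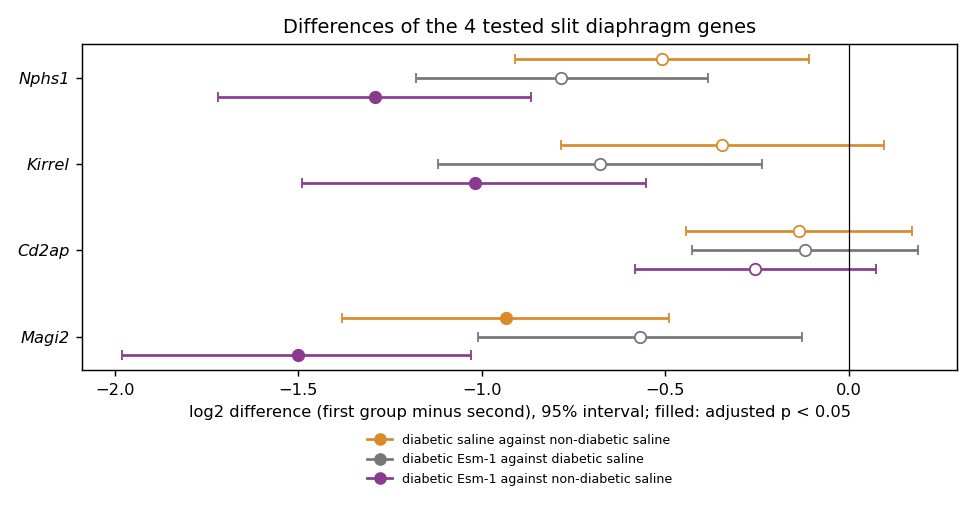
Log2 difference (horizontal axis, first group minus second, with the 95% interval) of the 4 tested genes in the 3 comparisons, filled where the limma adjusted p is under 0.05. All 12 values lie below 0, from -0.12 for Cd2ap to -1.5 for Magi2, and the intervals of Cd2ap reach across 0 in every comparison.

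Since podocyte markers as a whole were lower in the diabetic groups, each member was also expressed relative to them, as its log2 level minus the mean log2 level of the 32 podocyte markers in the same library. Magi2 was lower in diabetic than in non-diabetic libraries on this scale too. It was at -0.37 ± 0.05, -0.95 ± 0.15 and -0.98 ± 0.21 (SD) in the non-diabetic saline, diabetic saline and diabetic Esm-1 libraries, with no overlap of the first group with the other two. Centring every gene on the podocyte markers and refitting gave log2 differences of -0.58 between the saline groups (limma adjusted p = 0.12), -0.03 between the diabetic groups (adjusted p = 0.908) and -0.61 between diabetic Esm-1 and non-diabetic libraries (adjusted p = 0.031). Nphs1 stood at 1.16 ± 0.11, 1.0 ± 0.22 and 0.75 ± 0.12 in the 3 groups, and its relative difference between the diabetic Esm-1 and non-diabetic libraries, -0.40, did not pass (adjusted p = 0.096). Kirrel followed the markers closely, at -0.31 ± 0.10, -0.30 ± 0.28 and -0.44 ± 0.10, with adjusted p = 0.622 for the same comparison. Between the diabetic groups the relative differences were -0.25 for Nphs1 and -0.14 for Kirrel, where 0 of the 8239 tested genes passed. Cd2ap turned direction on this scale, from 0.26 ± 0.24 to 0.48 ± 0.16 and 0.90 ± 0.23, and its difference of 0.64 between the diabetic Esm-1 and non-diabetic libraries passed (adjusted p = 0.0185). The centring moves the median of all tested genes by 0.90 in that comparison, 0.35 in diabetic against non-diabetic saline and 0.54 in the Esm-1 comparison, so Cd2ap rose less than the median gene relative to podocyte markers. Several of these markers are also used by other kidney cells.

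**Figure D3:**
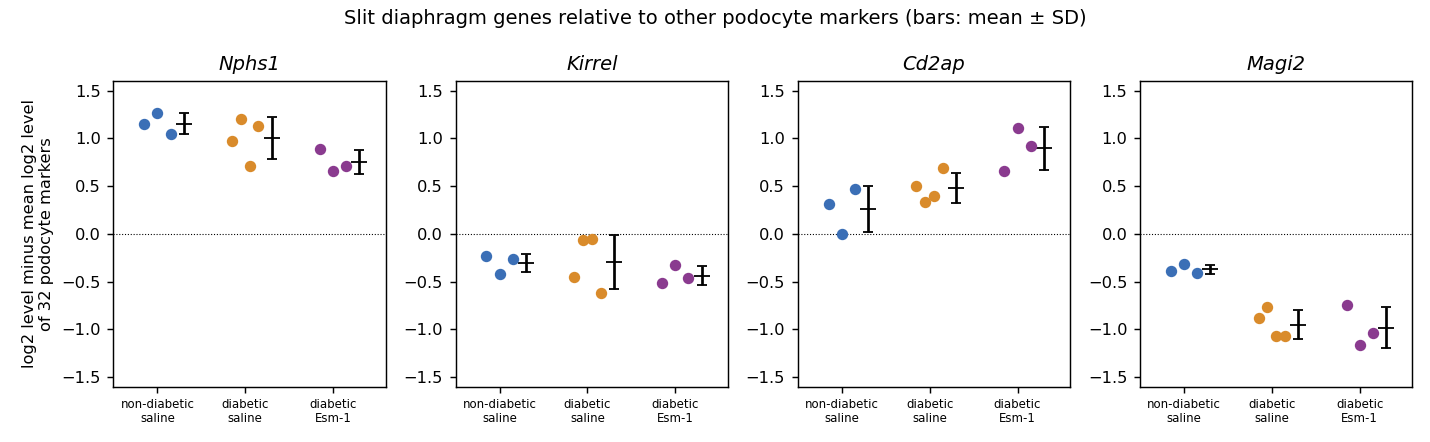
Log2 level of the 4 tested genes minus the mean log2 level of 32 podocyte markers in the same library (vertical axes, the dotted line at 0 is the marker mean), by group, with 1 point per library and the mean ± SD. Magi2 drops from about -0.37 in non-diabetic saline to -0.95 and -0.98 in the diabetic groups, Kirrel stays between -0.62 and -0.06, and Cd2ap lies above the marker mean.

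The wider slit diaphragm was represented by a list of 40 partners, polarity proteins, adaptors and paralogs, of which 38 were in the table and 32 were tested. In diabetic against non-diabetic saline 2 of the 32 fell and none rose, where 5.53% of all tested genes passed in either direction and 1.81% were lower, with a median log2 difference of -0.31 against -0.01 over all tested genes. The 2 that fell were Fat1, a giant cadherin of the slit (log2 -0.46, SE 0.13, adjusted p = 0.0371), and Tjp1, the ZO-1 scaffold that binds NEPH1 (log2 -0.49, SE 0.14, adjusted p = 0.0374). Neither call was firm: Fat1 had adjusted p = 0.0727, 0.149 and 0.0719 without non-diabetic saline replicates 1, 2 and 3, and 0.0889, 0.0694 and 0.0681 without diabetic saline replicates 1, 3 and 4. Tjp1 had 0.0546, 0.118 and 0.126 without the same 3 non-diabetic replicates, and 0.115 and 0.0736 without diabetic saline replicates 1 and 3. Leaving out a diabetic Esm-1 library also moved them, to 0.0525 for Fat1 without replicate 3 and to 0.0516 and 0.0517 for Tjp1 without replicates 2 and 3.

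No partner gene passed limma between diabetic Esm-1 and diabetic saline, where 22 of 32 lay below 0 with a median of -0.19. Crb2, a Crumbs polarity protein needed for foot processes, had -1.31 (SE 0.30, adjusted p = 0.136), from 28.2 ± 6.69 (SD, n = 4) to 11.2 ± 4.56 (SD, n = 3) normalized counts.

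Between diabetic Esm-1 and non-diabetic saline 12 of the 32 partner genes fell and none rose, where 15.3% of all tested genes passed in either direction and 8.11% were lower, with a median of -0.33 against 0.01 over all tested genes. Crb2 fell 3.24-fold (log2 -1.70, SE 0.32, limma adjusted p = 0.00101), the dendrin gene Ddn 2.70-fold (log2 -1.43, SE 0.29), and Plce1, a phospholipase C mutated in nephrotic syndrome, 2.41-fold (log2 -1.27, SE 0.21). Dendrin binds nephrin and CD2AP. Ddn and Plce1 are also among the 32 podocyte markers. Fat1 (-0.75), Tjp1 (-0.82) and Pik3r1 (-0.86), a regulatory subunit of the phosphoinositide 3-kinase that nephrin recruits, fell less. The remaining 5 that fell were Fyn (-0.81), the kinase that phosphorylates nephrin, Nck2 (-0.57), an adaptor that binds phosphorylated nephrin, Mpp5 (-0.52), a polarity scaffold, Ptpn1 (-0.47), a tyrosine phosphatase, and Myo1e (-0.42), a membrane-bound myosin. Of the 10 fits without 1 library, Fyn, Nck2 and Mpp5 each kept the call in 5, Myo1e in 3 and Ptpn1 in 2. By edgeR and DESeq2, Myo1e (adjusted p = 0.0907 and 0.0675) and Ptpn1 (0.0561 and 0.0753) did not pass, nor did Mpp5 by DESeq2 (0.0582). Of all 32 partner genes, 7 fell when any of 4 libraries was left out (replicates 1 and 2 of non-diabetic saline, replicates 2 and 3 of diabetic Esm-1). Relative to the podocyte markers, 2 of the 32 were lower and 15 higher, where 44 of the 8239 tested genes were lower and 4923 higher, and Crb2 (-0.81, adjusted p = 0.0334) still passed as lower.

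Paralogs of the members were followed in the same fit. Magi1 and Magi3, the other 2 genes of the MAGI family, lay above 0 where Magi2 was low, at 0.55 (SE 0.23, adjusted p = 0.126) and 0.45 (SE 0.24, adjusted p = 0.239) between the diabetic Esm-1 and non-diabetic libraries, and neither passed. Magi1 passed as higher once a term for the 2 libraries with title numbers under 100 was added (0.71, adjusted p = 0.0329). Relative to the podocyte markers both passed as higher, Magi1 at 1.44 (adjusted p = 0.00144) and Magi3 at 1.34 (adjusted p = 0.00281), where the median of all tested genes is at 0.90. Their mean normalized counts were 54.2 ± 14.8 and 52.8 ± 17.1 in non-diabetic saline, 60.1 ± 13.9 and 61.9 ± 15.1 in diabetic saline, and 77.9 ± 9.20 and 70.1 ± 5.94 in diabetic Esm-1. In diabetic against non-diabetic saline they were at 0.16 and 0.25, and at -0.09 and -0.04 without non-diabetic saline replicate 2. Kirrel2, which encodes NEPH3 and lies next to Nphs1 on the opposite strand, had 11.3 ± 1.55, 8.40 ± 4.71 and 5.07 ± 1.98 normalized counts in the 3 groups and no call (adjusted p = 0.233 between the diabetic Esm-1 and non-diabetic libraries). Sh3kbp1, the CIN85 adaptor related to Cd2ap, was at -0.72 in that comparison (adjusted p = 0.145). Of the other TRPC channels Trpc1, named after its values were seen, was tested, with -1.08 (SE 0.46, adjusted p = 0.123), from 16.6 ± 7.46 to 7.32 ± 4.04 normalized counts.

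**Figure D4:**
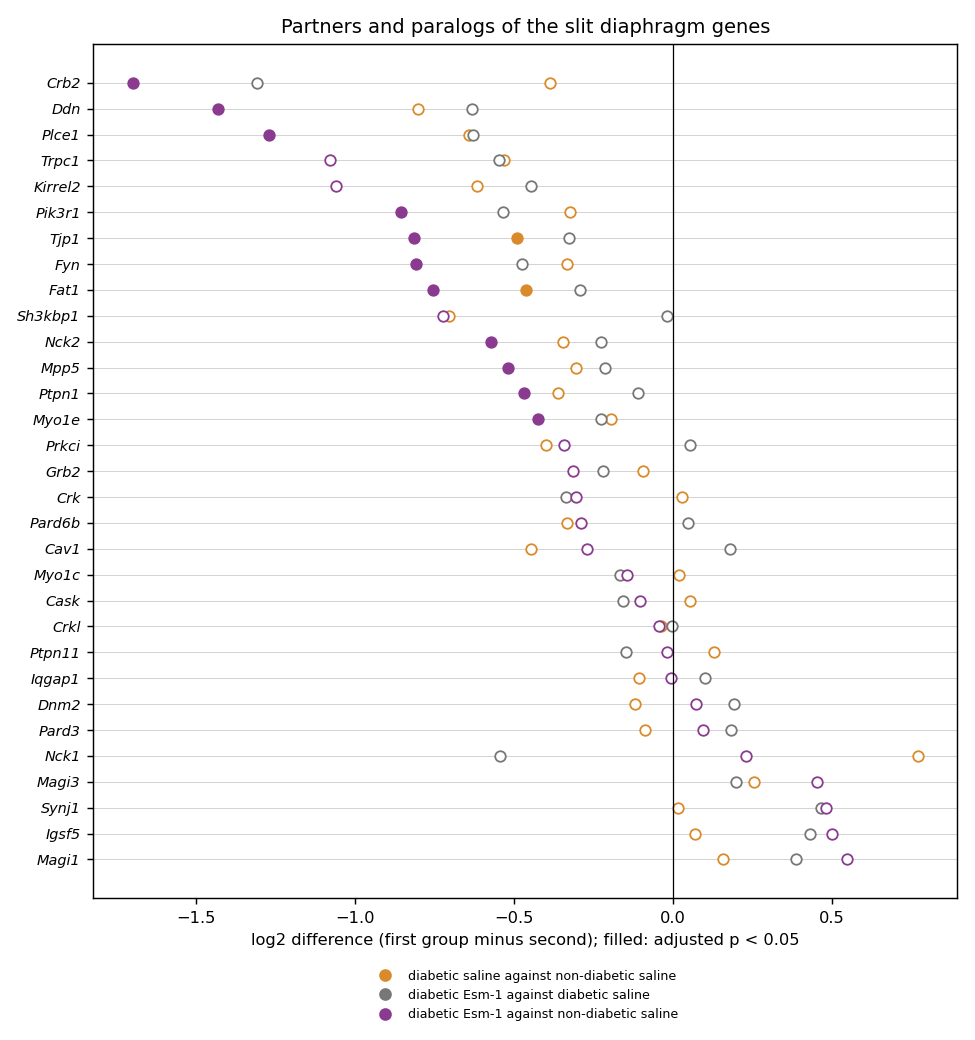
Log2 difference (horizontal axis, first group minus second) of 31 tested partners and paralogs (vertical axis, sorted by the difference between the diabetic Esm-1 and non-diabetic libraries), filled where the limma adjusted p is under 0.05. The 11 filled points of that comparison run from -0.42 for Myo1e to -1.70 for Crb2, and Magi1 and Magi3 lie to the right of 0.

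The genes most alike to each member over the 10 libraries were found by the root mean square difference between mean-centred log2 profiles, among 2630 other genes whose mean reached 50 normalized counts. For Nphs1 they were Podxl (0.105), which encodes the podocyte surface sialomucin podocalyxin, Dpp4 (0.127), a cell surface peptidase, and Dpysl2 (0.133). For Magi2 they were Ildr2 (0.114), Rhpn1 (0.116) and Tenc1 (0.126), the tensin 2 gene. For Kirrel they were Tuba1a (0.137), Epas1 (0.145), a hypoxia-inducible factor, and Sparc (0.145), and for Cd2ap they were the tetraspanin gene Cd151 (0.089), Srsf3 (0.0917) and Sf3b2 (0.0959). Magi2 ranked 32nd in likeness to Nphs1 (0.209), Kirrel 81st (0.279) and Cd2ap 697th (0.482). The profiles share libraries and depth, so likeness is a description only.

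Reads of 2 members may include those of another gene. In GENCODE M21 Nphs1 shares 597 exon bases with the antisense gene Nphs1os and 183 with the pseudogene Rps12-ps4, also on the opposite strand. Whether their reads were kept apart is unknown, because the strandedness of the counting is not given in the sources used here. Magi2 shares 203 exon bases with Gm29254 on the same strand, where strand cannot separate the reads. None of these 3 genes has a row in the table.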

How the data were processed

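Total RNA of isolated glomeruli was sequenced. Per the submitters' processing notes, the tools were Trimmomatic 0.36 for trimming, STAR 2.5.3a for alignment to mm9, and DESeq2 1.28.1 under R 4.0.2. Which counter and annotation were used, and whether strand was, is not given in the sources used here. The deposited signal values are normalized counts, which the authors made by dividing reads by a size factor of each library. Dividing by the value of 1 read gave whole reads for 100% of 129340 values (tolerance 0.001).

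The tests took the 8239 genes that reached 10 normalized counts in 3 or more libraries and left out 4695. One limma 3.58.1 fit in R 4.3.3 on log2 of the value plus 1, with an intensity trend and all 10 libraries, gave the 3 comparisons. Tests were two-sided, with Benjamini-Hochberg adjusted p under 0.05 over all tested genes. They were also run on simulated data with the same dispersion for every gene. These data held no shared shifts in cell content between libraries, so they do not check the tests under such shifts. Alternatives included edgeR 4.0.16 and DESeq2 1.42.0 on the recovered reads.

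All members were named, each partner gene that passed, close partners or paralogs (Kirrel2, Sh3kbp1, Tjp1, Fat1, Magi1 and Magi3) and, per member, the 3 genes of most alike profile. One partner gene is counted but not reported here. Members and lists were chosen with earlier results of these data known. Replicate numbers follow the order of the records. No 2 libraries agreed within counting noise. Counting intervals and floors cover counting error only.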

Additional observations from a re-analysis of the deposited data

How the results depend on the processing

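No paired analysis was possible because the labels give each library its own number and no shared replicate number. Of 880 values of named genes under an alternative, 763 kept direction and side of the threshold, 86 lost the call, 8 gained one and 23 turned direction. The number of members called in diabetic against non-diabetic saline was 0 in place of 1 when centred on the podocyte markers and without the intensity trend, and 0 to 1 without 1 library. For the Esm-1 comparison it was 1 in place of 0 by DESeq2 and 0 to 1 without 1 library. The number of partner genes called in diabetic against non-diabetic saline, 2, was 0 with a common total, without the intensity trend and without the 2 libraries with title numbers under 100, 1 by edgeR, with only the 2 groups compared and when centred, 3 with a pseudocount of 5 and with a term for those title numbers, and 0 to 3 without 1 library. The 1 partner gene called by edgeR and the 1 called when centred were neither Fat1 nor Tjp1. Fat1 and Tjp1 had adjusted p = 0.0615 and 0.0509 by edgeR, and 0.758 and 0.704 by limma when centred. In the Esm-1 comparison the number of partner genes called was 1 by DESeq2 and 0 to 2 without 1 library. Against non-diabetic saline it was 7 without the trend, 17 (15 higher) when centred, and 7 to 12 without 1 library. Centring turned the direction of Kirrel (0.0102) and Cd2ap (0.22) in diabetic against non-diabetic saline, of Cd2ap (0.42), Kirrel2 (0.0904), Sh3kbp1 (0.52), Tjp1 (0.21) and Fat1 (0.24) in the Esm-1 comparison, and of Cd2ap (0.64), Sh3kbp1 (0.17), Tjp1 (0.0748), Fat1 (0.14), Nck2 (0.32), Fyn (0.0836), Mpp5 (0.37), Pik3r1 (0.03455), Myo1e (0.47) and Ptpn1 (0.42) between the diabetic Esm-1 and non-diabetic libraries. It moves the median of all tested genes too, to 0.35, 0.54 and 0.90 in the same order, and the cause of these turns was not tested. Sh3kbp1 in the Esm-1 comparison (-0.02) was at 0.00165 when scaled to a common total that leaves out Rn45s, Lars2 and Mir6236, and ran from -0.158 to 0.119 without 1 library, turning without diabetic saline replicates 1 or 3 or diabetic Esm-1 replicate 2. Between the saline groups and without 1 library, Magi1 ran from -0.0876 to 0.291 and Magi3 from -0.0376 to 0.441, both negative without non-diabetic saline replicate 2. Depth limits Trpc6 most among the members and Kirrel2 most among the tested partner genes.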

Other observations

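Kirrel3, the gene of NEPH2 and a paralog of Kirrel, lay below the filter and was singled out after its values were seen. It had 16, 8 and 8 reads in non-diabetic saline, 4, 1, 3 and 2 in diabetic saline and 4, 5 and 0 in diabetic Esm-1, or 9.04 ± 1.55 (SD, n = 3), 2.56 ± 1.16 (SD, n = 4) and 2.46 ± 2.39 (SD, n = 3) normalized counts. Every non-diabetic library lay above every diabetic one. Among the tested genes, which leave out Kirrel3, 16.5% did not overlap between the saline groups in either direction and 8.34% did so as lower. Between diabetic Esm-1 and non-diabetic saline these shares were 32.8% and 17.4%. Summed reads per unit of depth were 3.69 times higher in non-diabetic than in diabetic saline (exact 95% counting interval 1.77 to 8.41) and 3.45 times higher than in diabetic Esm-1 (1.61 to 8.23). With no filter on low values, limma gave log2 differences of -1.56 (SE 0.57, adjusted p = 0.15) and -1.86 (SE 0.61, adjusted p = 0.0521) over 12934 genes, so neither passed. Trpc4, a channel related to Trpc6, was as sparse, with 15, 7 and 5 reads over the 3 groups.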
